A study of Mus musculus with 8 samples.

Results

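The 10 *Gbp* genes described here encode guanylate-binding proteins and lie in a pair of clusters of the mouse genome, 6 on chromosome 5 (*Gbp4*, *Gbp6*, *Gbp8*, *Gbp9*, *Gbp10* and *Gbp11*) and 4 on chromosome 3 (*Gbp2*, *Gbp3*, *Gbp5* and *Gbp7*). They are 10 of the 23284 gene symbols in the deposited expression tables and were chosen by name, because the chromosome 5 genes were already known to be low in *Pcgf1*-KO IdHPCs. The question was whether the same genes are lower in LMPPs, set against the genes of the chromosome 3 cluster. The values of these 10 genes in the IdHPC comparison therefore describe the choice and carry no test.

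RNA-seq was made from 8 libraries of cultured mouse bone marrow progenitors, 2 control (*Pcgf1* fl/fl) and 2 *Pcgf1*-KO (*Pcgf1* -/-) libraries for each of 2 cell types. IdHPCs are multipotent progenitors that were grown from LSK cells after transduction with a virus expressing human ID3, an inhibitor of E-protein transcription factors, and LMPPs are lymphoid-primed multipotent progenitors, the stage from which lymphoid cells arise. The labels give the strain B6CBAF1/J, passages 15 to 18 and growth on TSt4 stroma with IL7, SCF and the Flt3 ligand for every library. For LMPPs, the study describes sorted bone marrow cells kept in culture for 4 days, so the passage in their labels is uncertain. In the study the floxed alleles were deleted through a tamoxifen-inducible Cre (ERT2-Cre) by 4-OHT for 4 days, which the LMPPs of both genotypes received, whereas for IdHPCs the methods name this treatment only for the *Pcgf1*-KO cells. *Pcgf1* encodes the subunit that defines a variant Polycomb repressive complex 1, and exons 2 to 7 of the gene are those removed by Cre.

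Guanylate-binding proteins are large GTPases related to dynamins. They are induced by interferons, most of all by interferon-γ, through the JAK kinases and transcription factors, among them the IRF family, which act on elements called GAS and ISRE in the promoters of target genes. In infected cells they coat the vacuoles of intracellular parasites and bacteria, and the chromosome 3 genes *Gbp2*, *Gbp5* and *Gbp7* have been linked to defence against *Toxoplasma*, to assembly of the NLRP3 inflammasome and to the phagocyte oxidase, respectively. The individual roles of the chromosome 5 genes are less well described.

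On the mm9 assembly (GENCODE release M1), the chromosome 5 cluster spanned chr5:105443172-105772948, 330 kb, with all 6 genes on the minus strand. The chromosome 3 cluster spanned chr3:142159864-142300972, 141 kb, with its 4 genes on the plus strand. Upstream sequence from RefSeq (GRCm38.p6) was at hand for 4 of the 10 genes, all on chromosome 3, and the 250 bases before the start of each are shown because elements bound by interferon-activated factors usually lie close to the start. Capitals mark matches to an ISRE-type motif, searched on both strands.
Gbp2, chr3:142620413-142620662, + strand: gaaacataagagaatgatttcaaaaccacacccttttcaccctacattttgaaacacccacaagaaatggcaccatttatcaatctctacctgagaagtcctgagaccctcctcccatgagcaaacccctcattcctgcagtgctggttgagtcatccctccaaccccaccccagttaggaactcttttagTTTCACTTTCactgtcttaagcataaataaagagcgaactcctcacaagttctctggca
Gbp3, chr3:142559794-142560043, + strand: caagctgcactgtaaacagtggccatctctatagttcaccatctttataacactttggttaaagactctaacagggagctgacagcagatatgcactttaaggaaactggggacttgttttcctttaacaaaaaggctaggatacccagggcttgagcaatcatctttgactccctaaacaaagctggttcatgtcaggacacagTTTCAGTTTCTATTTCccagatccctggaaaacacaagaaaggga
Gbp5, chr3:142496684-142496933, + strand: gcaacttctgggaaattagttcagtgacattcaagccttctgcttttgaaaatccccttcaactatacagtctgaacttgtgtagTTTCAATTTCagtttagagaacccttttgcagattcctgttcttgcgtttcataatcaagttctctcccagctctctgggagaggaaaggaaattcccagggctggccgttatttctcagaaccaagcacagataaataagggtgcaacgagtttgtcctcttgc
Gbp7, chr3:142530086-142530335, + strand: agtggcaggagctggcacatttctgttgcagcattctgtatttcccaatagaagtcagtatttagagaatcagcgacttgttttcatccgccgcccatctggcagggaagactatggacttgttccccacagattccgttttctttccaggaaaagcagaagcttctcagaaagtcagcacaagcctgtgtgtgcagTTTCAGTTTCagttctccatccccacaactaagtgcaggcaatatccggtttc

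Each of these 4 windows held an ISRE-type match, against 2.98% of 32851 windows of the same length in the table. *Gbp2* matched at 59 to 50 bases before its start and *Gbp7* at 53 to 44 bases. *Gbp3* held 2 matches that overlap, the first beginning 45 bases and the second 39 bases before the start, and a second annotated start of *Gbp3* had no match in its window. The match of *Gbp5* lay farther away, 165 to 156 bases before the start. GAS-type matches, which occurred in 7.02% of all windows, were found 2 times each in *Gbp5* and *Gbp7* and in neither *Gbp2* nor *Gbp3*. These are matches in sequence only and no binding was measured.

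The depth of the tables was 15717645 to 25292626 reads per IdHPC library and 9611759 to 12569296 reads per LMPP library, counted on exons after rows that repeat the row before them were dropped. A single read was worth 0.0287 to 0.0757 CPM, the authors' unit (read counts scaled to a fixed library total). The library totals behind CPM also count the repeated rows. A level was treated as undetected at 3 reads or fewer in a library. Intervals and this floor cover counting error only. The deleted *Pcgf1* exons 2 to 7 held 193 and 173 reads in the control IdHPC libraries and 15 in each *Pcgf1*-KO library. In LMPPs they did not follow the labels of every library. The libraries labelled control 1 and *Pcgf1*-KO 1 held 84 and 76 reads on these exons, and the libraries labelled control 2 and *Pcgf1*-KO 2 held 0. The other *Pcgf1* exons held 20 to 25 reads in each of the 4 LMPP libraries. The reads thus go against the labels of control 2 and *Pcgf1*-KO 1. Whether these labels were exchanged was not tested, and if they were, each LMPP value given by label would change its meaning. LMPP values are therefore given first by label, with tests, and then beside the *Pcgf1* reads, as a description with no test. The libraries with and without these reads also carry replicate numbers 1 and 2, so that the deletion and whatever those numbers mark cannot be told apart.

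Among markers of the cells, the progenitor genes *Flt3*, *Kit*, *Cd34*, *Ly6a* and *Ptprc* were all present and summed to 864 to 1148 CPM in IdHPCs and 1642 to 1766 CPM in LMPPs. Without overlap, *Cd34* (0.97) and *Ly6a* (0.87) were higher and *Ptprc* (-0.64) was lower in log2(CPM + 1) in *Pcgf1*-KO IdHPCs (none passed limma's adjusted p of 0.05), and *Ly6a* (-1.83) and *Flt3* (-0.22) were lower and *Kit* (0.60) and *Cd34* (0.096) higher in the LMPP libraries without reads on the deleted exons. Stromal genes made up much more of the IdHPC libraries. Their 14 markers summed to 3461 and 3022 CPM in control against 7449 and 5973 CPM in *Pcgf1*-KO IdHPCs. All 12 that were tested had positive fold changes (median log2 fold change 1.03), while 6069 of all 12272 genes tested were below 0. Of the 12, *Col1a2* and *Sparc* passed limma's adjusted p of 0.05, beside 0.497% of all genes tested. In LMPPs the sum was 36.4 to 59.4 CPM, nearly all of it *Pdgfrb*, and the collagen genes *Col1a1*, *Col3a1* and *Col6a1* were at or below the floor in every library. In bulk libraries, fewer cells of a type and less RNA per cell cannot be told apart. Of the other cell types, dendritic cell markers summed to 5.48 and 3.58 CPM in control against 1.93 and 2.21 CPM in *Pcgf1*-KO IdHPCs, most of it *Siglech*. *Siglech* was lower without overlap (-1.44), as were the B cell gene *Pax5* (-1.41) and the monocyte gene *Itgam* (-0.77), none past limma's adjusted p of 0.05. Their lists were mixed. Among genes below 1 CPM, which were not tested, *Itgax* (-0.22), *H2-Ab1* (-0.18) and *Csf1r* (-0.21) were lower without overlap. *H2-Aa* (0.37) and *Xcr1* (0.23) were higher without overlap. *Cd79a* (0.12) and *Mrc1* (0.60) were higher in the mean but overlapped. The sums of the macrophage and monocyte (6.96 to 12.6 CPM), B cell (10.1 to 19.8 CPM) and T and NK cell lists (16.3 to 19.1 CPM) overlapped between the genotypes. The part of the feeder RNA and of these cells in the IdHPC values below was not tested.

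The chromosome 5 genes were expressed in control IdHPCs and had almost no reads in *Pcgf1*-KO IdHPCs. For *Gbp8*, 904 and 1896 control reads stood against 7 and 17 *Pcgf1*-KO reads. *Gbp9* held 220 and 549 reads against 10 and 1. *Gbp6* held 121 and 194 reads against 3 and 0. For each of these genes both *Pcgf1*-KO libraries were far below both controls. *Gbp4* had 637 and 1082 control reads against 1 and 0 *Pcgf1*-KO reads, a CPM ratio that was 1265-fold lower with a counting interval (95%) of 227 to 50008, or 725-fold lower (130 to 28637) without the library labelled *Pcgf1*-KO 2. *Gbp11* held 123 and 250 reads against 0 in both, at least 44.3-fold lower by the floor of 3 reads per library. *Gbp10* was the lowest of the 6, with 6 and 30 reads against 0 in both, at least 4.23-fold lower by the same floor. This bound rested mostly on control 2. The lower end of the counting interval was 6.82-fold with all libraries and 1.79-fold without control 2. In sum the 6 genes gave 61.6 and 115 CPM in control against 0.737 and 0.847 CPM in *Pcgf1*-KO IdHPCs.

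The chromosome 3 genes of the same IdHPC libraries did not show this pattern. *Gbp7*, the only one of them with more than 54 reads in any IdHPC library, held 533 and 725 control reads (16.3 and 20.8 CPM) against 440 and 166 *Pcgf1*-KO reads (15.4 and 7.81 CPM). Its libraries did not overlap, but *Pcgf1*-KO 1 lay close to the lower control. *Gbp2* held 24 and 26 control reads against 54 and 26 *Pcgf1*-KO reads, which in CPM was 0.735 and 0.745 against 1.90 and 1.22, so that the *Pcgf1*-KO libraries were the higher ones. *Gbp3* (29 and 30 reads against 35 and 7) and *Gbp5* (11 and 4 reads against 0 and 4) overlapped between the genotypes. *Gbp1*, a chromosome 3 family gene that is not among the 10, held 14 and 1 reads against 29 and 9 and overlapped as well.

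Differences in log2(CPM + 1), which understate the change of genes with few reads, had a median of -2.95 over the 6 chromosome 5 genes in IdHPCs, from -4.73 (*Gbp8*) to -0.57 (*Gbp10*). The median of the 4 chromosome 3 genes was -0.14, and that of all 12272 genes tested was 0.01. All 6 chromosome 5 genes and 1 chromosome 3 gene, *Gbp7*, were lower in *Pcgf1*-KO without overlap, beside 21.4% of all genes tested, and *Gbp2* was higher without overlap, beside 25.6%. These counts restate how the genes were chosen. Of the 10 genes, 8 reached 1 CPM in at least 1 IdHPC library. *Gbp10* and *Gbp5* did not.

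**Figure D1:**
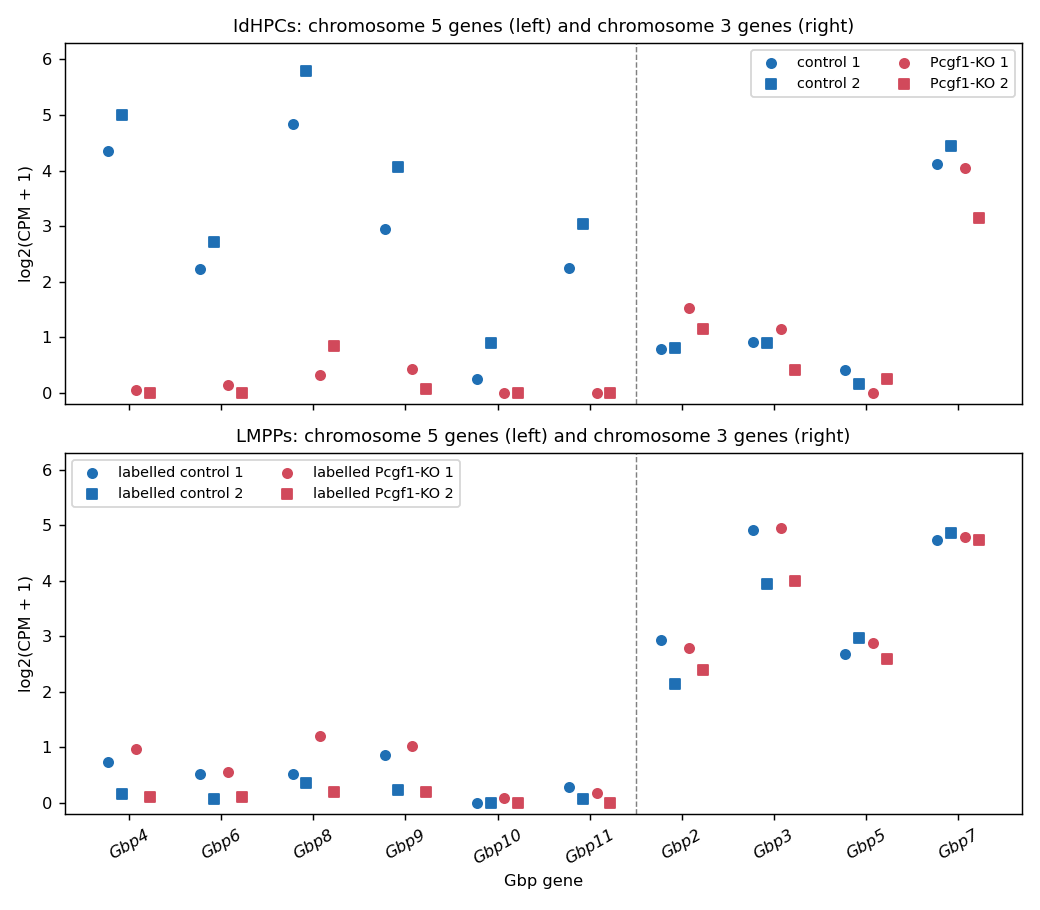
Level of the 10 *Gbp* genes in every library, as log2(CPM + 1), with IdHPCs above and LMPPs below; each point is a library, colors mark the labelled genotype and shapes the replicate number. In IdHPCs each chromosome 5 gene is higher in both controls than in both *Pcgf1*-KO libraries, *Gbp10* being the lowest of them, and in LMPPs the chromosome 5 genes lie at 1.20 or less (*Gbp8* in the library labelled *Pcgf1*-KO 1), below the chromosome 3 genes.

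The order of the genes by level differed between the cell types. Levels were compared between genes as CPM per kb of annotated exon, and these levels are set side by side across tables that the authors normalized separately. In control IdHPCs, *Gbp8* stood above every other family gene at 10.6 and 20.9 CPM per kb. *Gbp4* followed at 4.30 and 6.83, and then came *Gbp11* at 2.83 and 5.39, *Gbp7* at 2.94 and 3.74 and *Gbp9* at 1.85 and 4.33. The 2-library ranges of neighbors in this order overlapped from *Gbp4* to *Gbp9*. *Gbp6* was at 0.859 and 1.29, *Gbp2* and *Gbp3* were between 0.265 and 0.296, and *Gbp10* and *Gbp5* were the lowest of the 10, with ranges that overlapped.

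In the 4 LMPP libraries, *Gbp3* (4.41 to 9.17 CPM per kb) and *Gbp7* (4.58 to 5.02) were the highest, and their ranges overlapped. *Gbp2* (1.35 to 2.64) and *Gbp5* (1.24 to 1.70) came next, again with overlap. All chromosome 5 genes were below these, at 0.501 CPM per kb or less in every library. Among them *Gbp8*, *Gbp9*, *Gbp4*, *Gbp6* and *Gbp11* had overlapping ranges, and *Gbp10* had a single read in 1 of the 4 libraries. The table lists 11 exon rows for *Gbp11* where the GENCODE model holds 1.33 kb of exon, so its level per kb is the least certain.

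Compared by label, none of the 6 *Gbp* genes that could be tested in LMPPs passed the test. Among the chromosome 5 genes, *Gbp8* held 6 and 5 reads under the control label (libraries 1 and 2) against 19 and 2 under the *Pcgf1*-KO label. Its log2 fold change was 0.26 ± 0.44 (SE), with an adjusted p of 1.0 by limma. *Gbp9* held 11 and 3 reads against 15 and 2, with a log2 fold change of 0.07 ± 0.44 (SE) and an adjusted p of 1.0 by limma. Both passed the filter of 1 CPM only through the library labelled *Pcgf1*-KO 1. The other 4 chromosome 5 genes did not reach 1 CPM in LMPPs and were not tested. *Gbp4* held 9 and 2 reads by label against 14 and 1, *Gbp6* held 6 and 1 against 7 and 1, and *Gbp11* held 3 and 1 against 2 and 0. In each of these 3 genes the libraries numbered 1 were the higher ones within both labels. *Gbp10* had 1 read, in the library labelled *Pcgf1*-KO 1.

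The chromosome 3 genes were well measured in LMPPs and all 4 were tested. *Gbp3* was at 29.2 and 14.3 CPM under the control label (libraries 1 and 2) against 29.7 and 14.9 CPM under the *Pcgf1*-KO label (log2 fold change 0.04 ± 0.42, SE). *Gbp7* was at 25.4 and 27.8 CPM against 26.5 and 25.4 CPM (-0.03 ± 0.15). *Gbp2* was at 6.64 and 3.39 CPM against 5.90 and 4.24 CPM (0.05 ± 0.34), and *Gbp5* at 5.38 and 6.85 CPM against 6.38 and 5.0 CPM (-0.09 ± 0.25). The labels overlapped for each of these genes, with an adjusted p of 1.0 by limma. *Gbp1* had no read in any LMPP library. The wide errors of *Gbp2* and *Gbp3* came with libraries that differed within each label, by replicate number, while *Gbp7* varied little.

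Over all genes, none of the 12136 genes tested by label in LMPPs passed an adjusted p of 0.05 (0% called), neither by limma nor by edgeR's exactTest or quasi-likelihood test nor by DESeq2, and 1 gene (0.00824%) had an unadjusted limma p under 0.05. With a replicate block limma called 3 genes, none of them a *Gbp* gene. No *Gbp* gene of either cluster lacked overlap between the labels, beside 6.25% of all genes tested that were lower and 5.92% that were higher without overlap. The median log2 difference by label was 0.06 for the 6 chromosome 5 genes, 0.00 for the 4 chromosome 3 genes and -0.00 for all genes tested. Each label held 1 library with and 1 without reads on the deleted *Pcgf1* exons, which limits this comparison. Whether the IdHPC and LMPP differences differ from each other was not tested, because the IdHPC comparison chose the genes.

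Set beside the reads on the deleted *Pcgf1* exons, 5 of the 6 chromosome 5 genes were lower in the 2 LMPP libraries without such reads. *Gbp4* had 9 and 14 reads in the libraries with them, labelled control 1 and *Pcgf1*-KO 1, and 2 and 1 reads in the libraries without them, labelled control 2 and *Pcgf1*-KO 2. *Gbp9* had 11 and 15 reads against 3 and 2, and *Gbp6* had 6 and 7 against 1 and 1. *Gbp8* had 6 and 19 reads against 5 and 2, so that the nearest libraries differed by a single read. *Gbp11* had 3 and 2 reads against 1 and 0, all at or below the floor, and *Gbp10* had 1 read in all, in the library labelled *Pcgf1*-KO 1, and so overlapped.

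Most of these values rest on few reads. The CPM ratio was 8.34-fold lower for *Gbp4* (counting interval 2.52 to 43.4, from 23 and 3 reads), 5.65-fold lower for *Gbp9* (2.14 to 18.9, from 26 and 5 reads) and 3.88-fold lower for *Gbp8* (1.63 to 10.6, from 25 and 7 reads). The *Gbp8* ratio rested on single libraries, at 1.93-fold lower (0.537 to 6.72) without the one labelled *Pcgf1*-KO 1, which held 19 of the 25 reads, and 5.87-fold lower (1.46 to 51.1) without the one labelled control 2. For *Gbp6* it was 7.07-fold lower (1.60 to 64.5, from 13 and 2 reads). Summed over the 6 genes, the libraries with reads on the deleted exons held 35 and 58 *Gbp* reads (2.58 and 3.98 CPM) and those without held 12 and 6 (0.690 and 0.454 CPM). The sum was 5.62-fold lower, with a counting interval of 3.37 to 9.89.

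The chromosome 3 cluster was split in the same view. *Gbp3*, at 29.2 and 29.7 CPM with and 14.3 and 14.9 CPM without reads on the deleted exons, was 2.03-fold lower (1.80 to 2.28). *Gbp2*, at 6.64 and 5.90 CPM against 3.39 and 4.24 CPM, was 1.66-fold lower (1.31 to 2.12). Both were lower without overlap. *Gbp5* (5.38 and 6.38 CPM against 6.85 and 5.0 CPM) and *Gbp7* (25.4 and 26.5 CPM against 27.8 and 25.4 CPM) overlapped. The windows of these 2 genes shown above are the ones that hold GAS-type matches, a description of 4 genes from which nothing was tested. The 4 genes together were 1.32-fold lower (1.24 to 1.41).

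Without overlap, 5 of the 6 chromosome 5 genes (all but *Gbp10*) and 2 of the 4 chromosome 3 genes were lower in the libraries without reads on the deleted exons, beside 29.9% of all genes tested. The chromosome 5 count cannot be read against that share, because *Gbp4*, *Gbp6* and *Gbp11* did not pass the filter, *Gbp11* was at or below the floor in all 4 libraries, and *Gbp8* and *Gbp9* passed it only through the library labelled *Pcgf1*-KO 1, one of the higher pair. The median difference in log2(CPM + 1) was -0.52 for chromosome 5, -0.30 for chromosome 3 and -0.02 for all genes tested. The chromosome 5 median depended on single libraries, moving to -0.64 without the library labelled control 1 and to -0.34 without the one labelled *Pcgf1*-KO 1. With a pseudocount of 0.1 in place of 1 the chromosome 5 median was -1.62. The levels from which the chromosome 5 genes were lower, 2.58 and 3.98 CPM in sum, were themselves far below the 61.6 and 115 CPM of control IdHPCs.

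**Figure D2:**
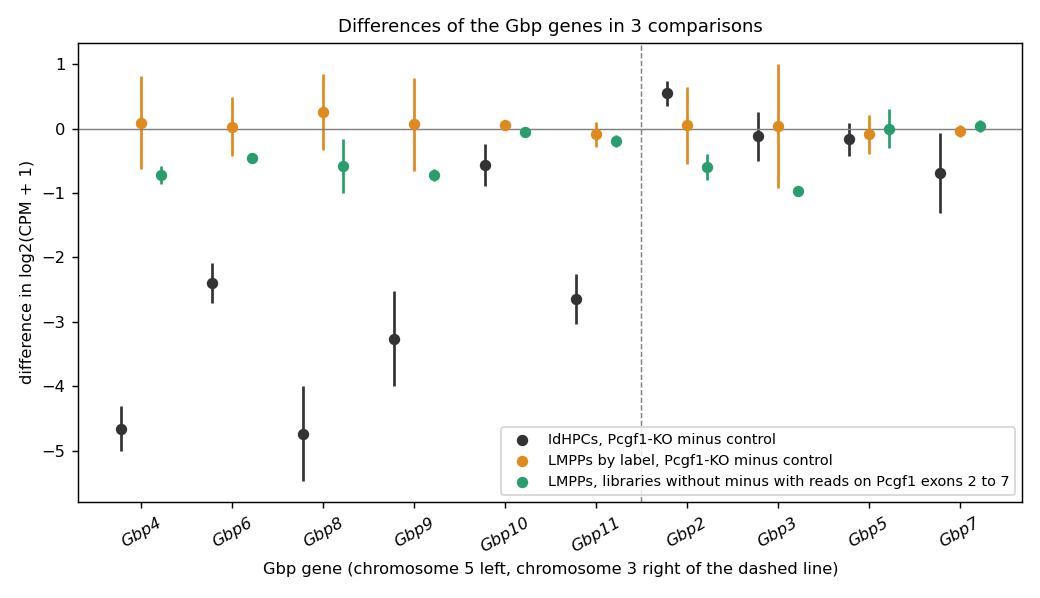
Difference in log2(CPM + 1) of each *Gbp* gene in 3 comparisons; points are mean differences and lines run from the lowest to the highest of the 4 differences between single libraries, with no test. The chromosome 5 genes lie between -4.73 and -0.57 in IdHPCs, on both sides of 0 by label in LMPPs, and between -0.72 and -0.05 in the LMPP libraries without against those with reads on *Pcgf1* exons 2 to 7.

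The reads were looked at exon by exon, to see whether the low LMPP counts lay along whole genes. In control IdHPCs, *Gbp8* had reads on all 10 of its rows in both libraries, *Gbp4*, *Gbp9* and *Gbp11* on all 11, and *Gbp6* on 8 of the 9 rows counted. In the *Pcgf1*-KO libraries, *Gbp8* kept reads on 6 and 4 rows and *Gbp4* on 1 and 0. In LMPPs the chromosome 5 genes had 111 reads on 56 of 188 combinations of row and library, and the row at the 3′ end took 48.6% of them. Neighboring rows with 0 reads in every library also count as repeats and were dropped, so that 188 is below the 248 combinations of the same genes in IdHPCs and the share of rows with reads is overstated. In the library labelled *Pcgf1*-KO 1, which had the most, *Gbp9* had reads on 7 of 11 rows, *Gbp8* on 6 of 9 and *Gbp4* on 4 of 10. By contrast, the chromosome 3 genes had reads on 175 of 176 combinations in LMPPs.

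**Figure D3:**
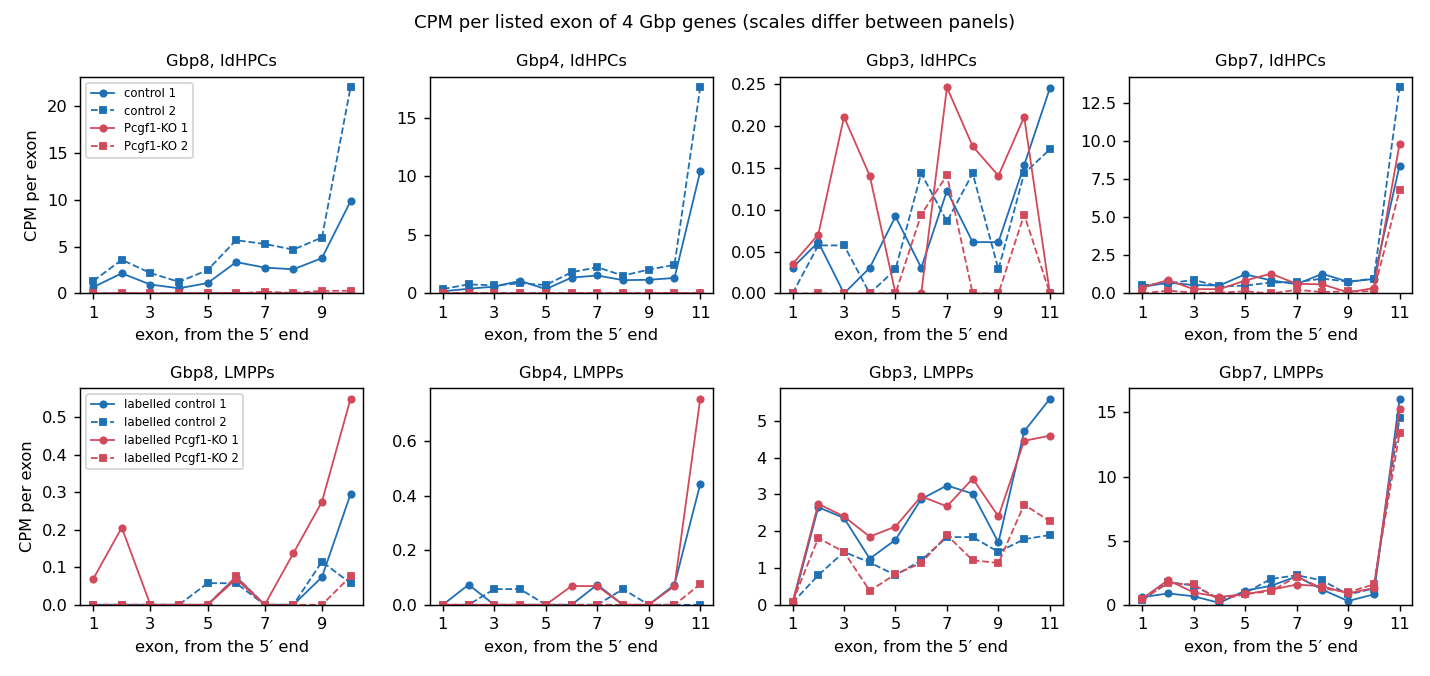
CPM on each listed exon of *Gbp8*, *Gbp4* (chromosome 5), *Gbp3* and *Gbp7* (chromosome 3), numbered from the 5′ end, in the 4 IdHPC libraries (upper panels) and the 4 LMPP libraries (lower panels); vertical scales differ between panels. In control IdHPCs the last exon takes the most reads of *Gbp8*, *Gbp4* and *Gbp7*, and *Gbp3* in LMPPs is lower along most exons in the libraries labelled control 2 and *Pcgf1*-KO 2.

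Reads of the chromosome 5 genes can be hard to place, because these genes resemble each other. Of all stretches of 50 bases in the coding transcripts of *Gbp6*, 80.0% occur also in another gene, 75.3% in *Gbp10*, and 78.7% of those of *Gbp10* occur elsewhere, most of them in *Gbp6*. The share was 34.5% for *Gbp11*, 18.3% for *Gbp8*, 12.2% for *Gbp4* and 9.07% for *Gbp9*. It was 1.98% to 3.92% for the chromosome 3 genes. The split of reads between *Gbp6* and *Gbp10* is therefore uncertain. *Gbp8*, *Gbp4* and *Gbp9* carried most of the chromosome 5 reads in both cell types.

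The genes around the clusters were examined for whether they moved with the *Gbp* genes. Of 18 listed genes that start within 1 Mb of the chromosome 5 cluster, 12 were tested in IdHPCs and 0 passed the adjusted p of 0.05 by limma (background 0.497% of all genes), while 3 had an unadjusted p under 0.05, beside 14.5% of all genes. These 3 were *Abcg3*, *Lrrc8c* and *Spp1*. *Abcg3*, the nearest gene on the side of *Gbp8*, is an ABC transporter family gene that was at 1.01 and 2.03 CPM in control IdHPCs against 0 in both *Pcgf1*-KO libraries (log2 fold change -1.30 ± 0.33, limma adjusted p = 0.10). *Abcg3* passed the filter of 1 CPM only through the control libraries, which limits what its tests can show. *Lrrc8c*, which encodes a subunit of volume-regulated anion channels and starts 175 kb beyond the cluster on the *Gbp11* side, was at 34.3 and 52.3 CPM against 23.1 and 17.7 CPM (-1.03 ± 0.27, adjusted p = 0.12). *Spp1*, which encodes osteopontin and starts farther out on the *Gbp8* side, was the higher one in *Pcgf1*-KO, at 71.1 and 71.0 CPM against 136 and 130 CPM (0.89 ± 0.21, adjusted p = 0.083). *Abcg3* and *Lrrc8c* had been singled out earlier after their values were seen. Count models called both of them, as well as *Spp1*, by edgeR's exactTest (4.96% of all genes called) and DESeq2 (4.03%), whereas the quasi-likelihood test called only *Abcg3* (1.02%). The range over the 12 genes was -1.30 to 0.89.

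In LMPPs, 11 of the 18 neighbors were tested by label and 0 passed, with log2 fold changes from -0.11 to 0.14. *Abcg3* was at 0.343 CPM or less in every LMPP library. Beside the reads on the deleted *Pcgf1* exons, 5 of the 11 neighbors were lower and 4 were higher without overlap, beside 29.9% and 26.7% of all genes tested, and their median difference was -0.03. *Lrrc8b* and *Lrrc8d*, which code for further subunits of these channels, were higher (0.49 and 0.35), *Lrrc8c* overlapped, and *Spp1* was the lowest at -1.39. Around the chromosome 3 cluster, 4 of 5 listed genes were tested in each cell type and 0 passed in either, although *Pkn2* was called lower in IdHPCs (-0.97, limma adjusted p = 0.044) when the library labelled *Pcgf1*-KO 1 was left out. In the same view of the LMPP libraries these 4 lay between -0.35 and 0.32.

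**Figure D4:**
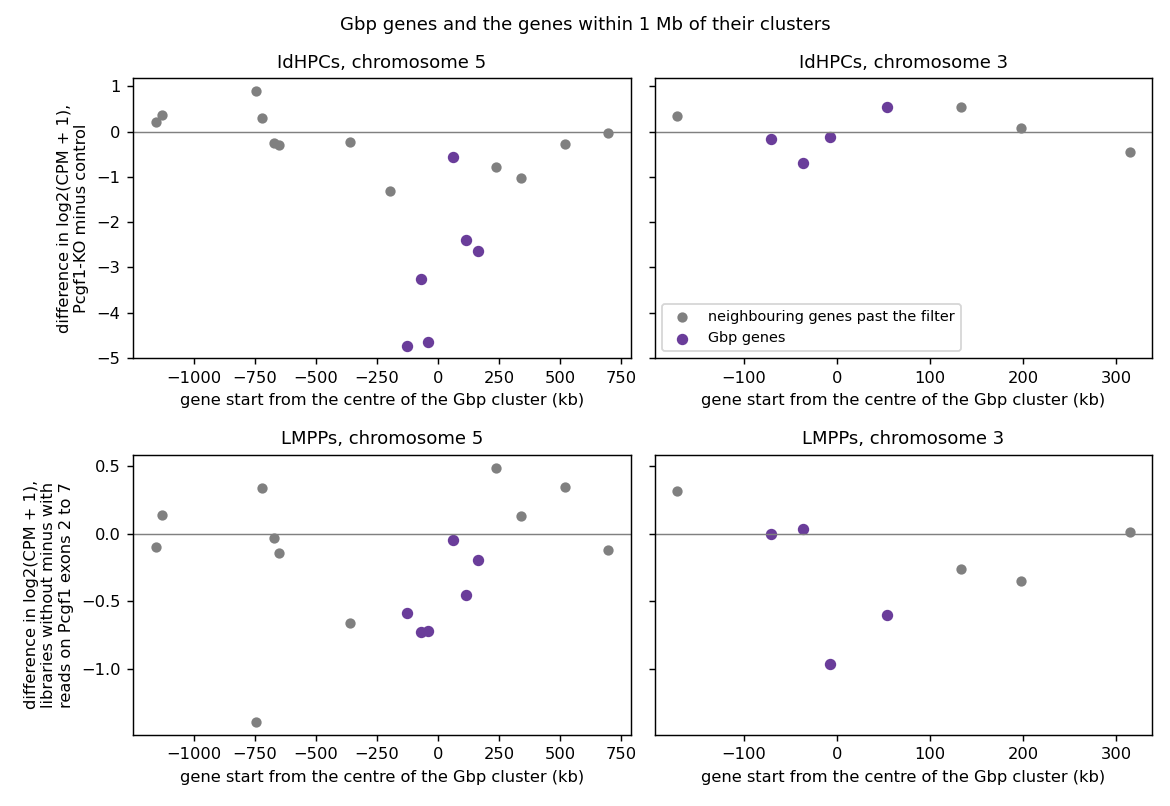
Difference in log2(CPM + 1) of the *Gbp* genes and of the tested genes within 1 Mb of their clusters, by distance of each gene's start from the cluster centre in kb; upper panels show IdHPCs (*Pcgf1*-KO minus control) and lower panels LMPP libraries without minus with reads on *Pcgf1* exons 2 to 7, and the vertical scales differ. In IdHPCs 5 of the 6 chromosome 5 *Gbp* genes lie below every neighbor, whereas in LMPPs all 6 lie between -0.72 and -0.05, with *Spp1* (-1.39) the one neighbor below all of them, and *Gbp3* and *Gbp2* (-0.97 and -0.60) lie below the chromosome 3 neighbors.

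Because *Gbp* genes are interferon targets, a list of 44 other genes of the interferon pathway was read in the same way. In IdHPCs, 35 of them were tested and 0 passed limma's adjusted p of 0.05, beside 0.497% of all genes tested, 7 had an unadjusted p under 0.05, beside 14.5%, and the median log2 fold change was -0.24. Without overlap, 18 were lower in *Pcgf1*-KO and 3 were higher, beside 21.4% and 25.6% of all genes tested, and 7 of the 8 transcription factors were among the lower ones. The receptor genes *Ifngr1*, *Ifngr2*, *Ifnar1* and *Ifnar2* lay between -0.21 and 0.11. The factor that overlapped was *Irf1*, which responds to interferon-γ, at 26.4 and 30.3 CPM in control against 25.7 and 29.2 CPM in *Pcgf1*-KO IdHPCs. *Irf8*, a factor of myeloid and B lineage cells, was at 38.1 and 47.1 CPM against 20.6 and 22.6 CPM (-0.94, adjusted p = 0.10), and *Nlrc5*, the activator of MHC class I genes, at 179 and 207 CPM against 122 and 93.2 CPM (-0.85, adjusted p = 0.11). Both were called lower by exactTest (4.96% of all genes called) and DESeq2 (4.03%), and neither by the quasi-likelihood test (1.02%). The other interferon-induced GTPases had a median of -0.01, from -0.74 (*Gvin1*) to 0.69 (*Iigp1*). On the log2(CPM + 1) scale, 0 of the 35 genes tested were lower by 1 or more in IdHPCs without overlap, the range in which 5 of the 6 chromosome 5 *Gbp* genes lay, beside 1.22% of all genes tested. This scale understates differences of low genes, and in CPM *Gvin1* was at 2.39 and 4.64 against 1.79 and 1.46, and *Rsad2*, which was not tested, at 0.765 and 0.802 against 0.140 and 0.0941.

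In LMPPs by label, 40 genes of the list were tested and 0 passed, 0 had an unadjusted limma p under 0.05 and 0 lacked overlap, with a median of -0.02. Over all genes tested by label, 0% passed and 0.00824% had an unadjusted limma p under 0.05. Without overlap, 6.25% were lower and 5.92% higher. Beside the reads on the deleted *Pcgf1* exons the picture was different. Of the 40 genes, 30 were lower and 5 higher without overlap in the libraries without such reads, beside 29.9% and 26.7% of all genes tested, and the median difference was -0.61. Among the lower genes, *Mx2*, *Isg15*, *Gvin1*, *Tgtp1* and *Ifit1* passed the filter of 1 CPM only through libraries with such reads. For these genes the count cannot be read against that share. All 8 of the other GTPases tested were lower, at -0.85 in the median. *Mx1*, an antiviral GTPase, went from 13.8 and 13.1 CPM in the libraries with reads to 0.863 and 1.44 CPM in those without, and *Mx2* from 5.01 and 5.49 CPM to 0.403 and 0.681 CPM.

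The other roles of the list differed in how many genes were lower without overlap, namely all 4 receptors, 7 of 8 transcription factors, 2 of 3 inhibitors, 9 of 14 other targets and 0 of 3 kinases. *Irf7*, the factor that amplifies type I interferon responses, was at 18.8 and 20.3 CPM in the libraries with and 6.39 and 4.32 CPM in those without reads on the deleted exons. For *Irf7* the pairs of libraries were far apart relative to the spread within a pair, which did not hold for every gene of the list. *Oas2* and *Oasl2*, of the oligoadenylate synthetase family, differed by -2.17 and -1.96, and *Isg15*, a ubiquitin-like modifier, by -1.32. In all, 11 genes of the list were at least 2-fold lower on this scale without overlap, among them *Mx1*, *Mx2*, *Irf7*, *Oas2*, *Oasl2*, *Isg15*, *Usp18*, *Tgtp2*, *Gvin1* and *Bst2*, and 0 were 2-fold higher, beside 1.47% and 2.48% of all genes tested. Of the 11, *Mx2*, *Isg15* and *Gvin1* passed the filter of 1 CPM only through the libraries with reads on the deleted exons, which limits their part in this count. The antigen presentation genes *Psmb8* and *Psmb9* overlapped and *Tap1* and *Tap2* were higher by 0.21 and 0.17, whereas *B2m* (-0.25) and *Nlrc5* (-0.94) were lower without overlap. The 4 receptor genes lay between -0.66 and -0.16, *Jak1* was higher by 0.34, *Irf2* by 0.17, and the inhibitor *Socs3* by 0.87.

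The LMPP libraries without these reads also had lower levels of monocyte and macrophage markers. Their sum was 226 and 240 CPM in the libraries with and 98.1 and 96.3 CPM in those without reads on the deleted exons, made up mostly of *Csf1r*, *Itgam* and *Cd68*, while *Mrc1* and the complement genes *C1qa*, *C1qb* and *C1qc* were at or below the floor in every library. The T and NK cell list moved likewise, from 35.4 and 31.2 CPM to 11.3 and 13.6 CPM, nearly all of it *Nkg7*, with *Cd3e* and *Cd3g* at or below the floor. Dendritic cell markers summed to 208 to 215 CPM in all 4 libraries, with *H2-Aa* and *Siglech* lower and *Itgax* and *H2-Ab1* higher without overlap in the libraries without these reads. B cell and erythroid lists summed to 4.32 CPM or less in every LMPP library. The part of these cells in the *Gbp* values was not tested.

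**Figure D5:**
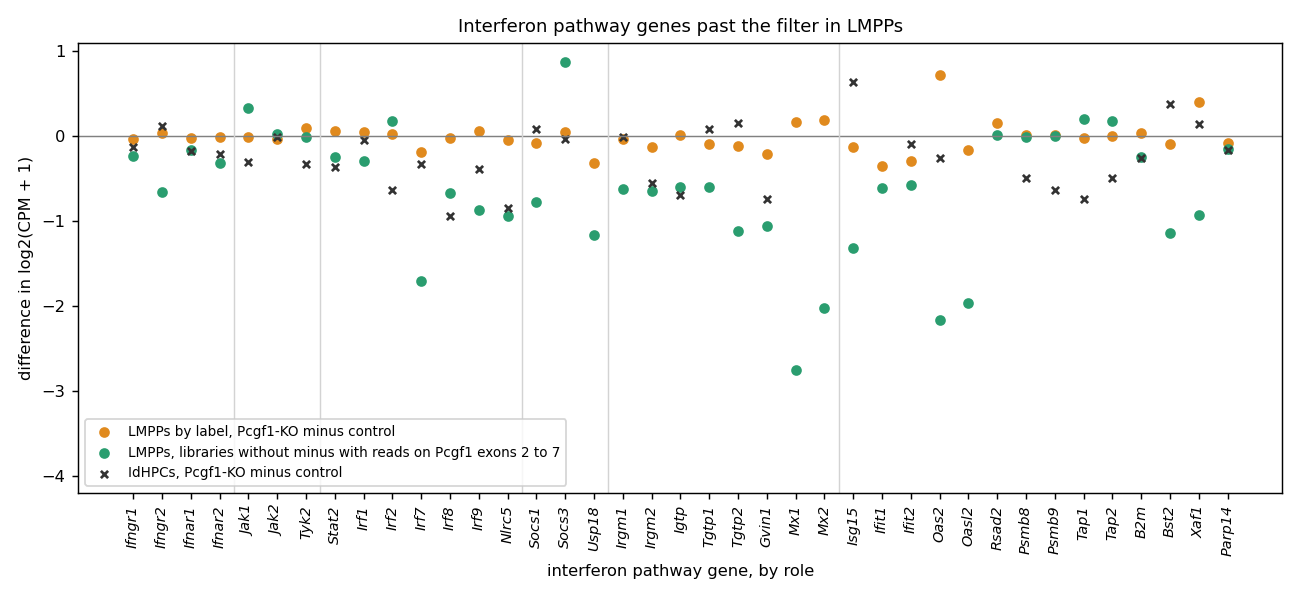
Difference in log2(CPM + 1) of 39 of the 40 interferon pathway genes tested in LMPPs, ordered by role and divided by vertical lines into receptors, kinases, transcription factors, inhibitors, other GTPases and other targets; orange points are LMPPs by label, green points LMPP libraries without minus with reads on *Pcgf1* exons 2 to 7, and crosses IdHPCs where tested. Differences by label lie between -0.35 and 0.72, and the green points reach -2.76 at *Mx1*.

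Finally, the genes most like the summed chromosome 5 *Gbp* genes were sought over the 8 libraries, after centring each gene within each table, among 11236 genes that passed the filter in both. They were *Psd4* (Pearson r = 0.996), *Bzrap1*, *Ncf1*, *Cd300lb* and *Pim1*, the last at 0.994. *Ncf1*, which encodes a subunit of the phagocyte oxidase, was at 87.9 and 95.9 CPM in control and 57.1 and 57.0 CPM in *Pcgf1*-KO IdHPCs, and in LMPPs at 314 and 321 CPM in libraries numbered 1 against 267 and 268 CPM in libraries numbered 2. *Cd300lb*, a receptor of myeloid cells, was at 32.4 and 40.3 CPM against 10.7 and 9.18 CPM in IdHPCs, and in LMPPs at 37.6 and 37.5 CPM against 27.0 and 26.7 CPM. These 8 libraries share their genotype and replicate structure, so that a high r describes the order of the libraries and no more.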

How the data were processed

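Poly(A) RNA-seq was measured in 8 libraries, 2 per genotype and cell type. Per the methods and the labels, the authors aligned reads to mm9 (HISAT2 in the methods, TopHat2 2.0.13 in the submitters' processing notes), counted them and computed CPM (counts scaled to a fixed library total) with edgeR. The deposited CPM tables list exon rows (284716), were normalized separately and hold no filter. Strandedness of counting was not given in the sources used here, and the kit does not mark strand. All CPM values were whole multiples of 1 read (tolerance 0.01 reads), so reads were recovered; rows that repeat the row before them (26.0% to 27.8% of reads) were dropped and exons were summed per symbol.

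Genes with at least 1 CPM in at least 1 library were tested on log2(CPM + 1) in each table by limma 3.58.1 (R 4.3.3) with a mean-variance trend and Benjamini-Hochberg adjustment over all genes tested, at 0.05. The study tested counts with exactTest; here that test, the quasi-likelihood test (edgeR 4.0.16) and DESeq2 1.42.0 were run as alternatives on recovered reads, beside another pseudocount (0.1), other filters, rescaling, all rows, a replicate block and leaving out each library. In simulated tables with an assumed dispersion of 0.02, limma recovered 200 of 200 genes given a 2 log2-unit change, with 10 false calls among 12005 genes for IdHPCs and 8 among 11983 for LMPPs; this does not carry over to libraries that spread more, as those within an LMPP label may. The labels do not say whether replicates are separate animals or cultures, so p-values measure only the spread between these libraries. Counting intervals are exact (Clopper-Pearson) at 95%. The *Gbp* genes and all lists were chosen with earlier results of these data known. Named are these 10 genes, other *Gbp* genes, genes starting within 1 Mb of a cluster, interferon pathway genes that passed a test or differed by over 2-fold without overlap, *Pcgf1* and the 5 genes with the highest r. Cell type markers, genes called only under an alternative and other interferon genes are named outside that rule, after their values were seen. The values of 1 gene of the interferon pathway list are not reported here, though the counts over the list include it.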

Additional observations from a re-analysis of the deposited data

How the results depend on the processing

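By label in LMPPs, 0 *Gbp* genes were called under each of 14 alternatives, and 0 genes in all except under the replicate block, which called 3 higher, none of them a *Gbp* gene (*Tuba1a*, *Gm6548* and *2410018M08Rik*). The replicate numbers mark no stated pairing; the library differences between numbers correlated at r = 0.147 between genotypes in IdHPCs and 0.705 in LMPPs. Median differences of the chromosome 5 genes in IdHPCs ran from -3.42 to -2.48 when 1 library was left out and reached -5.53 with a pseudocount of 0.1, and that of the chromosome 3 genes ran from -0.27 to 0.01 and reached -0.55. By label in LMPPs, these medians ran from -0.22 to 0.37 and from -0.19 to 0.18 without 1 library. By reads on the deleted *Pcgf1* exons, the chromosome 5 median ran from -0.64 to -0.34 without 1 library and was -1.62 with a pseudocount of 0.1, and the chromosome 3 median stayed between -0.36 and -0.29 under every alternative. Among interferon pathway genes in IdHPCs, exactTest called 1 higher (*Iigp1*) and 2 lower (*Irf8* and *Nlrc5*), DESeq2 called the same 2 lower, the replicate block called 1 lower (*Irf8*), and leaving out a library gave 0 to 1 (*Nlrc5* without *Pcgf1*-KO 1, *Tap1* without *Pcgf1*-KO 2). Among neighbors of the chromosome 5 cluster in IdHPCs, 2 were called lower by exactTest, 2 by DESeq2 and 2 under the replicate block (*Abcg3* and *Lrrc8c* each time), 1 by the quasi-likelihood test (*Abcg3*), and 0 to 2 without 1 library (*Lrrc8b* and *Lrrc8c* without *Pcgf1*-KO 1, which also called *Pkn2* beside the chromosome 3 cluster). Leaving out libraries for the CPM ratios was chosen after seeing the data. The cause of these shifts was not tested. Counting only rows that repeat in both tables as repeats, an alternative chosen after seeing the data, gave *Gbp4* 27 in place of 26 LMPP reads, *Gbp6* 17 in place of 15, *Gbp11* 8 in place of 6, and *Gbp5* 22 in place of 19 IdHPC reads. Depth limits the LMPP values: the chromosome 5 genes held 111 reads in all.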
